A study of Mus musculus with 8 samples.

Results

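The ionotropic and metabotropic receptor subunit genes for glutamate, GABA and glycine were followed across bulk RNA sequencing of mouse embryonic forebrain and spinal cord. Members were chosen by gene symbol alone (Gria, Grik, Grin, Grid, Grm, Gabr, Gabbr and Glr genes), which gave 52 of the 36317 gene symbols in the table. Each of 4 groups held 2 libraries. EED-cKO forebrain at embryonic day (E) 15.5 carried a Sox1-Cre-dependent knockout of Eed, and wild-type (wt) forebrain at E15.5 was its control. Spinal cord of wt embryos at E13.5 was set against forebrain of wt embryos at E13.5. Eed encodes a protein that PRC2, the Polycomb complex that writes a repressive histone mark, needs to work, and Sox1 is active in the early neural plate and neural tube. Endothelial and immune cells of the dissected tissue come from other lineages, and the labels give no further alleles of the wt embryos. Whether cells of the meninges lost Eed cannot be read from these values.

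Fast excitation in the nervous system runs through ionotropic glutamate receptors of the AMPA, kainate and NMDA classes, which are assembled from separate subunit genes. Fast inhibition runs through chloride channels of the GABA-A and glycine receptor families, while metabotropic glutamate receptors and GABA-B receptors act through G proteins. Subunit choice sets channel kinetics, permeability and anchoring. It changes with region and age: GluN2B and GluN2D precede GluN2A in NMDA receptors, and the alpha2 glycine receptor subunit precedes alpha1 in spinal cord.

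Values are RPKM (reads scaled to transcript length and to library size), rounded to 0.1 in the table, so levels of different genes can be set side by side per length. The depth of each library cannot be read from these values, which are not counts. The RPKM sum was 771823 and 761647 in the EED-cKO libraries, 775646 and 843296 in the E15.5 wt libraries, and 378294 to 397320 in the E13.5 libraries. No test was made between ages for this reason. The E15.5 columns are sorted in another row order than the gene names for part of the table, but all 52 receptor genes keep the same row in both orders. Over these genes, the E15.5 and E13.5 means of wt forebrain had a correlation of r = 0.890 on the log2 scale in that row, and with r = 0.087 to 0.316 when the E15.5 rows were shifted by 1 to 3 places (a description across genes, n = 52). Eed was at 10 and 10.6 RPKM in EED-cKO forebrain, against 25.8 and 27.9 RPKM in E15.5 wt forebrain. Emx1, a factor of the developing cortex, was at 9.1 and 7.5 RPKM in EED-cKO forebrain and 36.5 and 50.2 RPKM in E15.5 wt forebrain. Emx1 was at 0.1 and 0 RPKM in spinal cord, against 59.3 and 56.1 RPKM in E13.5 forebrain, and Slc6a5, the glycine transporter of spinal inhibitory neurons, was at 15.9 and 16.7 RPKM in spinal cord and listed at 0 in E13.5 forebrain. The labels do not say whether replicates are separate embryos or pools, and the spread that the p-values measure, between these libraries alone, may be technical. In bulk tissue, fewer cells of a type and less RNA per cell cannot be told apart.

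In wt forebrain these genes differed between replicates at both ages. Of the 43 tested members, 39 were higher in E15.5 wt replicate 1 than in replicate 2, with a median log2 difference of 0.29. Over all tested genes, 52.5% were higher in replicate 1. In E13.5 wt forebrain 34 of 43 were higher in replicate 1 (median log2 difference 0.14), against 45.9% of all tested genes. In EED-cKO forebrain 15 of 43 were higher in replicate 1 (median log2 difference −0.03), against 41.1% of all tested genes. In spinal cord 25 of 43 were higher in replicate 1 (median log2 difference 0.05), against 47.1% of all tested genes. Results are therefore also given without either E15.5 wt library where that changes a call.

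Most subunits were transcribed at these ages. At 1 RPKM or more in both libraries of a group stood 42 of the 52 genes in EED-cKO forebrain and 41 in E15.5 wt forebrain, and 37 in spinal cord and 30 in E13.5 forebrain. The most abundant member in every group was Gabbr1, the ligand-binding subunit of the GABA-B receptor. It was at 158.9 and 158.2 RPKM in EED-cKO forebrain against 153.4 and 133.9 RPKM in E15.5 wt forebrain. In spinal cord it was at 119.8 and 102.8 RPKM, against 67.1 and 57.6 RPKM in E13.5 forebrain. Grik5, a high-affinity kainate receptor subunit, came next in every group, at 113.9 and 113.8 RPKM in EED-cKO forebrain, 115.4 and 103.3 RPKM in E15.5 wt forebrain, 67.5 and 64 RPKM in spinal cord, and 58.1 and 53.8 RPKM in E13.5 forebrain. Neither gene was called between EED-cKO and wt forebrain, and the ranges of Grik5 overlapped.

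At the other end, 9 members did not reach 1 RPKM in 2 or more libraries and were not tested. Gabra6, a cerebellar granule cell subunit, did not exceed 0.1 RPKM in any library, and neither did Gabrp and Gabrr3. Glra4 and Grm6, a receptor of retinal bipolar cells, were listed at 0 in every library. Gabrr1 and Gabrr2, rho subunits known from retina, stayed at 0.3 RPKM or less. Grin2a, the NMDA receptor subunit of the mature forebrain, was listed at 0.6 RPKM for each EED-cKO library, against 0.3 and 0.2 RPKM in E15.5 wt forebrain. Glra3 was at 0.9 and 0.8 RPKM in EED-cKO forebrain, against 0.5 and 0.4 RPKM in E15.5 wt forebrain.

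**Figure D1:**
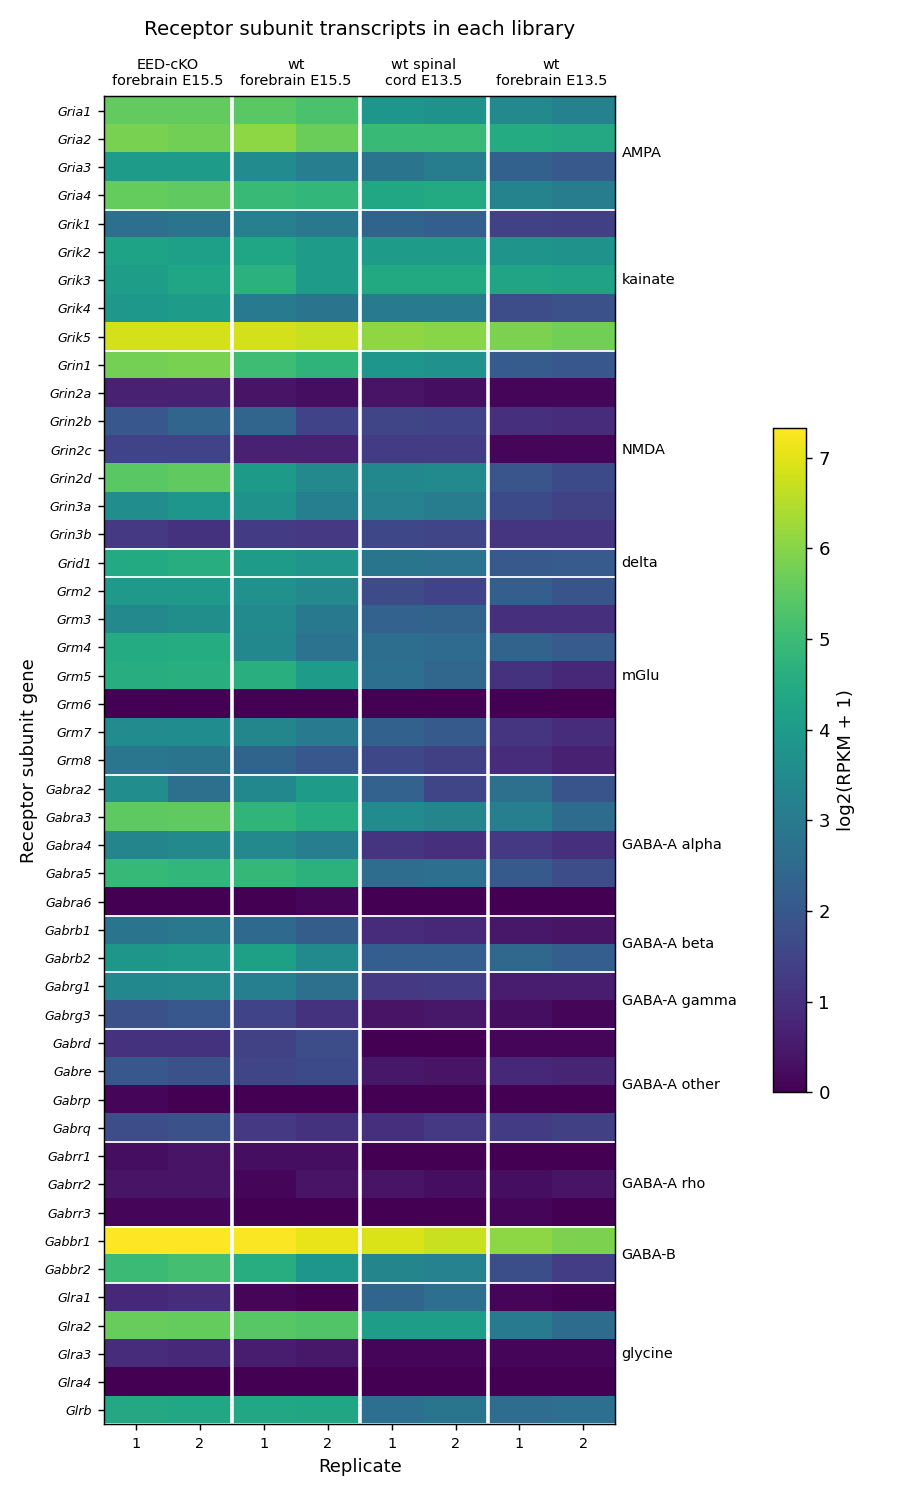
Heat map of log2(RPKM + 1) for 47 of the receptor subunit genes (rows, by family) in the 8 libraries (columns, by group and replicate). Gabbr1 and Grik5 are the brightest rows in every group, and Gabra6, Gabrp, Grm6, Glra4 and the rho subunits are dark throughout.

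In EED-cKO forebrain the receptor genes moved mostly upward. By limma on log2(RPKM + 1), with Benjamini-Hochberg adjustment over all 17022 tested genes and a threshold of 0.05, 20 of the 43 tested members rose and 1 fell. Over all tested genes, 30.2% were called higher and 16.7% were called lower, 46.9% in all. The median log2 change was 0.32 over the tested members and 0.08 over all tested genes. Glutamate receptors accounted for 11 of the higher calls among 24 tested, and GABA and glycine receptors for 9 among 19. Within several families some subunits were called higher and others were not called. The most abundant subunit was not called in some families (Gabbr1, Grik5, Gria2 and Glra2) and was called higher in others, among them Grin1 and Grid1.

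How many members were called depended on the libraries and the scaling. With only the 4 libraries compared, 11 rose (19.9% of all genes higher). After quantile normalization 12 rose and 3 fell (20.8% of all genes higher), and 45.1% of the calls over all genes were higher, against 64.5% without it. Median ratio scaling gave 16 and 2 members, with 48.8% of the calls over all genes higher. Quantile normalization moved the median change of all genes to −0.05 and that of the members to 0.19. Without EED-cKO replicate 1 or 2 the median log2 change of the members was 0.40 or 0.34, and that of all tested genes 0.09 or 0.07. Without wt replicate 1 these medians were 0.56 and 0.11, and without wt replicate 2 they were 0.17 and 0.05. Of the higher calls, 8 held with each of the 8 libraries left out, after quantile normalization and in the fit of 4 libraries, among them those of Grin1, Grin2c, Grin2d, Grik4, Grid1, Gria4 and Grm4. For Grin2c the rounded values were equal within every group, so leaving out a library could not move its change.

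**Figure D2:**
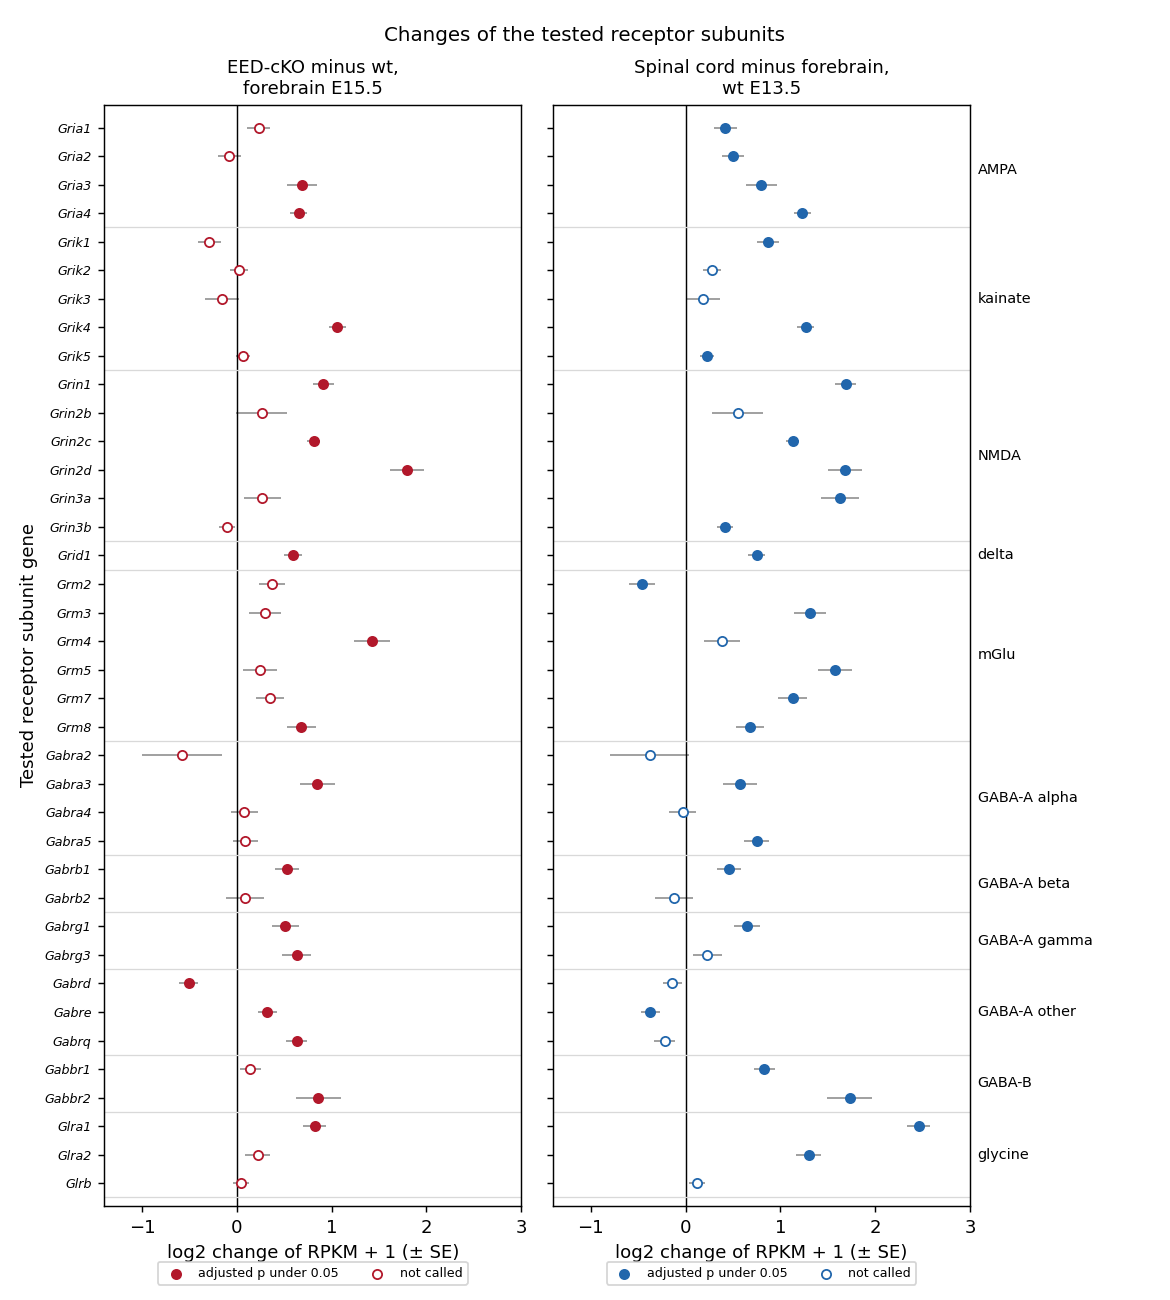
log2 change of RPKM + 1 with its SE for 38 of the tested members, by family, for EED-cKO minus wt forebrain at E15.5 (left) and spinal cord minus forebrain in wt at E13.5 (right). Filled points passed an adjusted p of 0.05: 17 higher and 1 lower on the left, 25 higher and 2 lower on the right.

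NMDA receptors pair the obligatory GluN1 subunit, encoded by Grin1, with GluN2 or GluN3 subunits. Of 6 tested NMDA receptor genes, 3 rose in EED-cKO forebrain. Grin2d, which encodes the slowly deactivating GluN2D subunit of embryonic and brainstem neurons, was at 42.9 and 45.2 RPKM in EED-cKO forebrain, against 14.8 and 9.8 RPKM in wt. Both EED-cKO libraries lay above both wt libraries by a wide margin, and Grin2d had the largest increase of all tested members (log2 1.79 ± 0.18 SE, limma adjusted p = 4.0e-04). Grin1 was at 53.9 and 56.3 RPKM in EED-cKO forebrain and at 32.1 and 26.1 RPKM in wt (log2 0.91 ± 0.11, adjusted p = 8.6e-04). Grin2c, a subunit best known from adult cerebellum, was low in both groups but separated, at 1.8 RPKM in each EED-cKO library, against 0.6 RPKM in each wt library (log2 0.81 ± 0.071, adjusted p = 2.5e-04). Its values, rounded to 0.1, were equal within every group, so this SE was set by the spread of other genes.

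The other NMDA receptor subunits were not called. Grin2b, a GluN2 subunit of embryonic cortex, was at 3 and 4.2 RPKM in EED-cKO forebrain and at 4.2 and 1.8 RPKM in wt. Its ranges overlapped (adjusted p = 0.471), and without wt replicate 1 it was called higher (log2 0.70, adjusted p = 0.0193). Grin3a, a GluN3 subunit that lowers calcium permeability, was at 11 and 13.5 RPKM in EED-cKO forebrain against 12.5 and 7.9 RPKM in wt. It too was called only without wt replicate 1 (log2 0.57, adjusted p = 0.0317). Grin3b was at 1.3 and 1.1 RPKM in EED-cKO forebrain and 1.4 and 1.3 RPKM in wt.

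Among AMPA receptor subunits, Gria3 and Gria4 rose and Gria1 and Gria2 were not called. Gria4, a subunit prominent in interneurons, brainstem and spinal cord, was at 47.6 and 44.9 RPKM in EED-cKO forebrain, against 30.4 and 27.8 RPKM in wt (log2 0.65 ± 0.089, adjusted p = 0.00129). Gria3 was at 15.3 and 15.2 RPKM in EED-cKO forebrain and 10.6 and 7.8 RPKM in wt (log2 0.69 ± 0.16, adjusted p = 0.0104). The Gria3 call was lost without EED-cKO replicate 1 or 2 (log2 0.68 and 0.69, adjusted p = 0.0662 and 0.0697) and in the fit of 4 libraries (adjusted p = 0.0608). Gria2, whose edited product makes AMPA receptors impermeable to calcium, was at 56.1 and 53.5 RPKM in EED-cKO forebrain, within the wt values of 66.8 and 50.1 RPKM. Without wt replicate 2 it was called lower (log2 −0.28, adjusted p = 0.0195), and without wt replicate 1 its change was 0.13. Gria1 was at 45.8 and 46.2 RPKM in EED-cKO forebrain and 42.5 and 36.1 RPKM in wt (adjusted p = 0.154).

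Kainate receptor subunits split by gene. Grik4, a high-affinity kainate subunit that needs a partner to form a channel, was at 14.1 and 15.1 RPKM in EED-cKO forebrain, against 6.9 and 6.1 RPKM in wt (log2 1.06 ± 0.090, adjusted p = 2.1e-04). It was the sole kainate subunit called of 5 tested. Grik1 was at 5.5 and 6.1 RPKM in EED-cKO forebrain and 8.1 and 6.6 RPKM in wt, without overlap but short of the threshold (log2 −0.29 ± 0.12, adjusted p = 0.0777). It was called lower after quantile normalization (log2 −0.61, adjusted p = 0.00195) and without wt replicate 2 (log2 −0.42, adjusted p = 0.0297). Grik2 and Grik3 overlapped between genotypes, at 15.3 to 18.6 RPKM and 15.6 to 24.4 RPKM over the 4 libraries. Grik3 was called lower without wt replicate 2 (log2 −0.46, adjusted p = 0.0149).

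Grid1, whose product acts as a synaptic organiser, was at 21.4 and 22.4 RPKM in EED-cKO forebrain and 15.3 and 13.1 RPKM in wt (log2 0.59 ± 0.093, adjusted p = 0.00218).

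Metabotropic glutamate receptors are grouped by their G protein coupling, and Grm5 excites neurons through phospholipase C while group II and III members lower cyclic AMP. Of 7 tested, 3 rose. Grm4, a presynaptic group III receptor, was at 21.8 and 22.2 RPKM in EED-cKO forebrain, against 9.6 and 5.9 RPKM in wt (log2 1.43 ± 0.19, adjusted p = 0.00115). Grm8 of the same group was at 6.4 and 6.1 RPKM in EED-cKO forebrain and 4.1 and 3 RPKM in wt (log2 0.68 ± 0.15, adjusted p = 0.00911), which did not hold without EED-cKO replicate 1 or 2 (log2 0.65 and 0.71, adjusted p = 0.0604 and 0.0529), after quantile normalization (log2 0.33, adjusted p = 0.0669) or in the fit of 4 libraries (adjusted p = 0.0547). Grm2, Grm3, Grm5 and Grm7 had log2 changes of 0.24 to 0.37 and were not called. Without wt replicate 1 all 4 were called higher (log2 0.51 to 0.56).

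**Figure D3:**
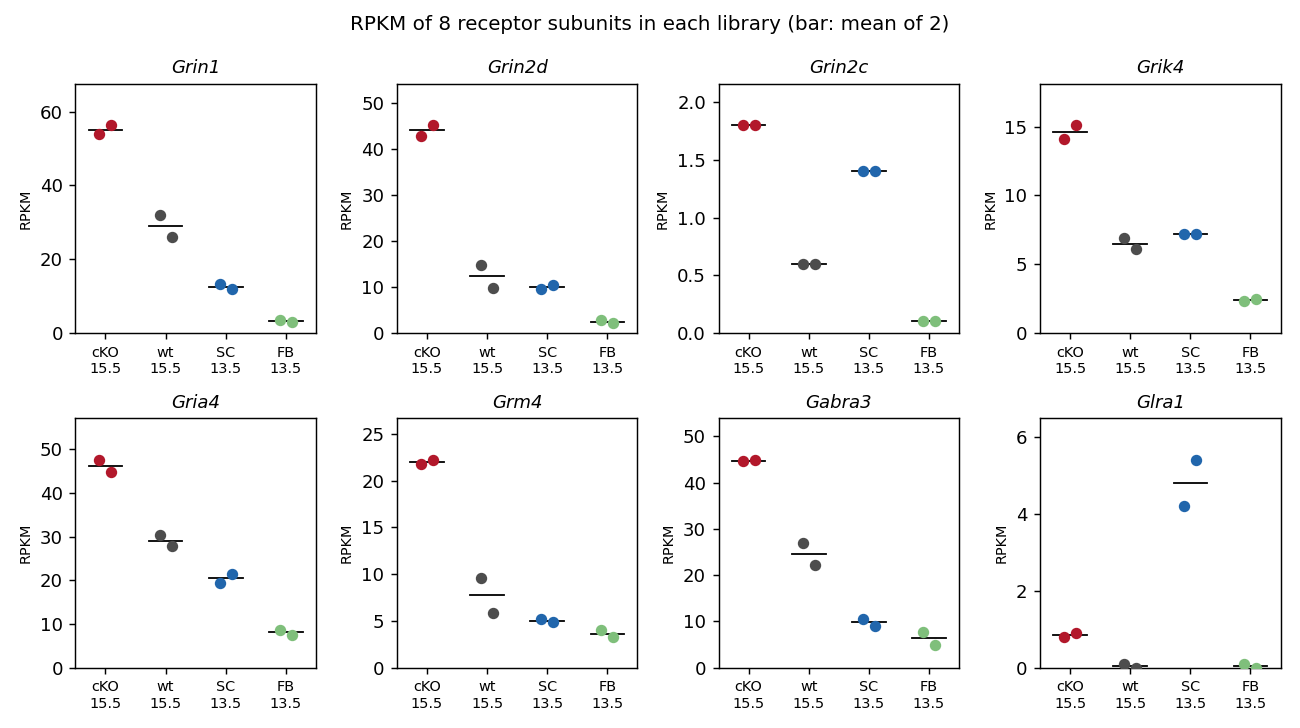
RPKM of 8 receptor subunits in every library (points) with the mean of each pair (bar), for EED-cKO (cKO) and wt forebrain at E15.5 and wt spinal cord (SC) and forebrain (FB) at E13.5. Axes are linear from 0. The 8 genes drawn are among those called higher in EED-cKO forebrain, so their separation from the E15.5 wt libraries comes with that choice. In each of them both spinal cord libraries also lie above both E13.5 forebrain libraries, although Grm4 was not called there. The same holds for 33 of the 43 tested members, and the share over all genes was not counted. Gabre and Gabrq, called higher in EED-cKO forebrain and not drawn, have both spinal cord libraries below both E13.5 forebrain libraries.

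GABA-A receptors are pentamers, usually of alpha, beta and gamma subunits. Of 14 tested GABA-A receptor genes, 7 rose in EED-cKO forebrain and 1 fell. Gabra3, the alpha3 subunit of embryonic forebrain and brainstem, was at 44.6 and 44.9 RPKM in EED-cKO forebrain, against 26.9 and 22.1 RPKM in wt (log2 0.85 ± 0.18, adjusted p = 0.00837). The call was lost without wt replicate 2 (log2 0.71) and without EED-cKO replicate 1 or 2 (log2 0.85 and 0.84), with adjusted p of 0.058 to 0.0653. Gabra2, Gabra4 and Gabra5 were not called. Gabra5 was at 29 and 28 RPKM in EED-cKO forebrain and 28.5 and 24.9 RPKM in wt, and Gabra4 was at 9 and 9.8 RPKM in EED-cKO forebrain and 10 and 7.8 RPKM in wt. Gabra2, another alpha subunit of embryonic neurons, varied more between replicates than between groups, at 11 and 5.5 RPKM in EED-cKO forebrain and 9.6 and 15.5 RPKM in wt. Its SE of 0.42 was the largest of the tested members.

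Among beta and gamma subunits, 4 of 6 rose by small amounts. Gabrb1 (log2 0.53 ± 0.13, adjusted p = 0.0139) and Gabrg3 (0.63 ± 0.15, adjusted p = 0.0125) each lost the call without EED-cKO replicate 2 (log2 0.47 and 0.53, adjusted p = 0.0868 and 0.0875), after quantile normalization (log2 0.19 and 0.27, adjusted p = 0.183 and 0.16) and in the fit of 4 libraries (adjusted p = 0.0903 and 0.082). Gabrb1 was at 6 and 6.6 RPKM in EED-cKO forebrain and 4.7 and 3.5 RPKM in wt. Its first 388 bases overlap those of Gabra4 on the other strand (chromosome 5, 71657921 to 71658308 in GRCm38), so unstranded reads there cannot be assigned to either gene. Gabrg1 (log2 0.51 ± 0.14, adjusted p = 0.0255) lost its call without either EED-cKO library (log2 0.52 and 0.49) and, at an adjusted p of 0.0504, without either spinal cord library (log2 0.51 each). It was also lost after quantile normalization (log2 0.24, adjusted p = 0.128), after median ratio scaling (log2 0.38, adjusted p = 0.0503) and in the fit of 4 libraries (adjusted p = 0.134). Gabrb2 was at 13.6 and 14.7 RPKM in EED-cKO forebrain, within the wt values of 17 and 10.3 RPKM, and was called higher without wt replicate 1 (log2 0.42, adjusted p = 0.0318).

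The minor GABA-A subunits were low and went both ways. Gabrd, the delta subunit of extrasynaptic receptors, was the member that fell, at 1.1 RPKM in both EED-cKO libraries against 1.7 and 2.3 RPKM in wt (log2 −0.51 ± 0.10, adjusted p = 0.00693). Its call was lost in the fit of 4 libraries (adjusted p = 0.0551). Gabrq, the theta subunit, was at 2.3 and 2.5 RPKM in EED-cKO forebrain and 1.3 and 1.1 RPKM in wt (log2 0.63 ± 0.11, adjusted p = 0.00303), a call lost after quantile normalization (adjusted p = 0.0557). Gabre, the epsilon subunit, was at 3 and 2.5 RPKM in EED-cKO forebrain and 1.9 and 2.1 RPKM in wt (adjusted p = 0.0355). Its change was −0.06 after quantile normalization, the call was lost after median ratio scaling (adjusted p = 0.129) and in the fit of 4 libraries (adjusted p = 0.096), and it kept its call only without EED-cKO replicate 2, with log2 changes of 0.22 to 0.37 and adjusted p of 0.0507 to 0.13 in the other 7 fits that left out a library.

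Gabbr2, the GABA-B subunit that couples to G proteins, was at 30.8 and 34.4 RPKM in EED-cKO forebrain, against 22.6 and 13.5 RPKM in wt (log2 0.86 ± 0.24, adjusted p = 0.022). The call was lost without wt replicate 2 (log2 0.51) and without EED-cKO replicate 1 or 2 (log2 0.94 and 0.78), with adjusted p of 0.085 to 0.136, and in the fit of 4 libraries (adjusted p = 0.1). Gabbr1 was not called (log2 0.14 ± 0.11). Among glycine receptor genes Glra1, the alpha1 subunit of mature spinal cord, was at 0.8 and 0.9 RPKM in EED-cKO forebrain and at 0.1 and 0 RPKM in wt (log2 0.82 ± 0.12, adjusted p = 0.00175). Glra1 stayed below 1 RPKM in all forebrain libraries and entered the test through the spinal cord libraries, and its call was lost after quantile normalization (adjusted p = 0.12). Glra2, the embryonic alpha subunit, was at 47.8 and 47.3 RPKM in EED-cKO forebrain and 42.2 and 39.1 RPKM in wt, without overlap and without a call (adjusted p = 0.192). It was called without E13.5 forebrain replicate 1 or 2 (log2 0.22 each, adjusted p = 0.0403 and 0.0397). Glrb, which tethers the receptor to gephyrin, was at 20.3 and 20 RPKM in EED-cKO forebrain and 20 and 19.2 RPKM in wt.

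Shares of a family within a library do not change when all values of that library are multiplied by a common factor. Quantile normalization can change them, and they were taken from RPKM without it. They are given as values, with no test. Gria4 made up 28.9% and 28.1% of the summed AMPA subunit RPKM in EED-cKO forebrain, against 20.2% and 22.8% in wt. Gria2 made up 34% and 33.5% in EED-cKO forebrain and 44.4% and 41.1% in wt. Among GluN2 genes, Grin2d took 88.8% and 87.3% in EED-cKO forebrain, against 74.4% and 79% in wt, and Grin2b took 6.21% and 8.11% in EED-cKO forebrain, against 21.1% and 14.5% in wt. Gabra3 took 43.6% and 45.9% of the GABA-A alpha subunits in EED-cKO forebrain and 31.7% and 28.7% in wt. Grik4 took 8.42% and 8.87% of the kainate subunits in EED-cKO forebrain, against 3.98% and 4.15% in wt. For each of these 6 subunits the EED-cKO and wt libraries did not overlap. They were picked after their values were seen. Of the 17 tested subunits in these 4 families, 11 shares did not overlap, 5 of them higher in EED-cKO forebrain and 6 lower. Those of Gria1, Grik2, Grik3, Grik5 and Grin2c were among the shares that overlapped. How often shares separate in other gene families was not counted, so 11 of 17 has no background to be set against.

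**Figure D4:**
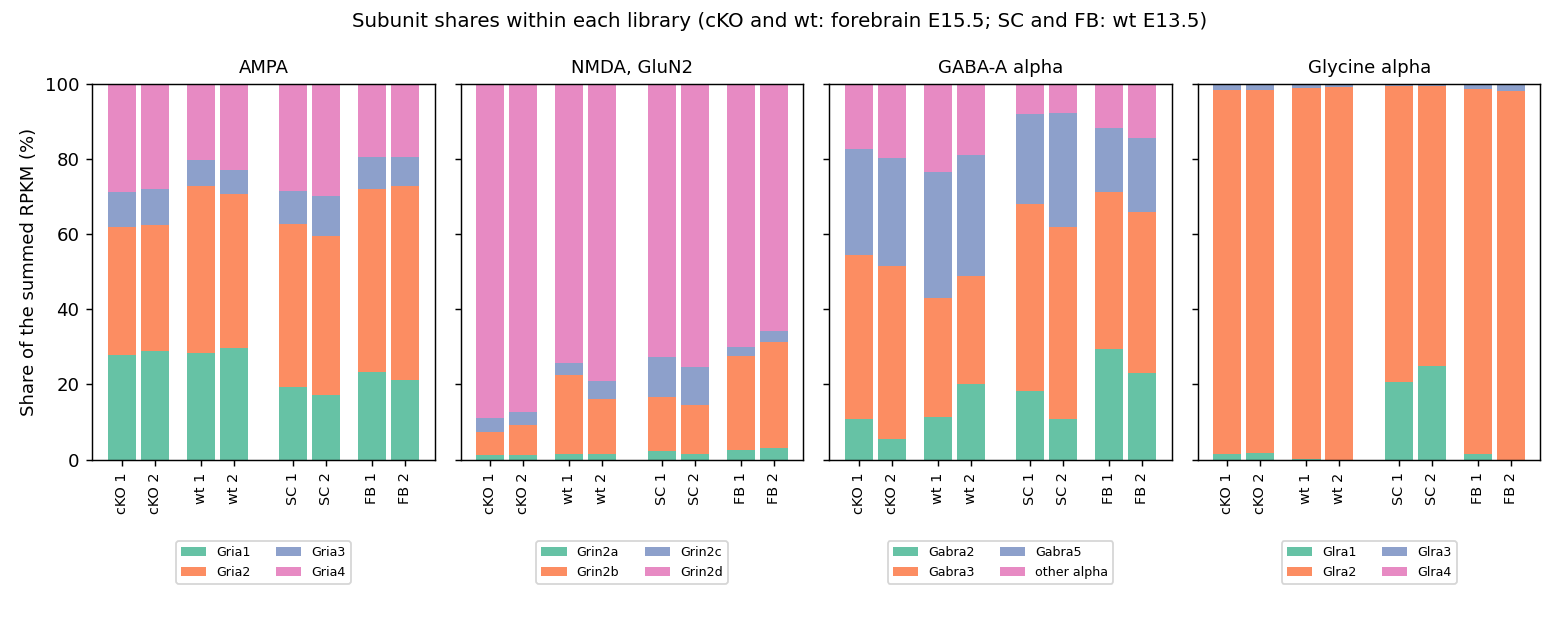
Share of each subunit in the summed RPKM of its family within each library, in percent, for AMPA, GluN2, GABA-A alpha and glycine alpha subunits, some alpha subunits being drawn as 1 sum. Grin2d takes 88.8% and 87.3% of the GluN2 sum in EED-cKO forebrain against 74.4% and 79% in wt, and Glra1 takes 20.6% and 25% of the glycine alpha sum in spinal cord against 1.39% and 0% in E13.5 forebrain.

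PRC2 is known in vertebrates to gather at promoters rich in CpG dinucleotides, so the 250 bases before the annotated start were read from RefSeq (GRCm38.p6) for the 36 members with an entry. A window was counted as CpG-rich at 50% GC or more and an observed-to-expected CpG ratio of 0.6 or more. This held for 16 of the 36 members (44.4%) and for 31.4% of the 27025 genes with a window. Of the 13 members called higher in EED-cKO forebrain that had a window, 9 were CpG-rich, with 0 to 37 CpG and a median of 18. Of 15 members without a call, 7 were CpG-rich, with a median of 12 CpG, and of the 8 untested members 0 were, with 1 to 7 CpG. These counts are a description and were not tested. The 27025 genes include genes that were not tested for expression, and the share over tested genes was not counted. The 31.4% is therefore no background for the members called higher. The windows of 6 members lie 1392 to 80957 bases from the annotated gene end: Grin2d among those called higher (4513 bases, 9 CpG), Gabra5, Gria2, Grik2 and Grik5 among those without a call, and Gabrr2 among the untested. The windows printed are those with the most and the fewest CpG among members that rose and whose start lies within 1000 bases of the annotated gene end. CpG dinucleotides are in capitals, and all 4 genes lie on the minus strand, written 5′ to 3′ along the gene.
Gabbr2: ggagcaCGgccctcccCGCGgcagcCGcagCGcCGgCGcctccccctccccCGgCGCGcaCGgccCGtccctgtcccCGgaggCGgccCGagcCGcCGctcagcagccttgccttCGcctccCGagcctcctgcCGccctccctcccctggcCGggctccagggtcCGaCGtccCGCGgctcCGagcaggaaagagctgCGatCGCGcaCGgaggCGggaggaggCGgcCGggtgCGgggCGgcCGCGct
Grik4: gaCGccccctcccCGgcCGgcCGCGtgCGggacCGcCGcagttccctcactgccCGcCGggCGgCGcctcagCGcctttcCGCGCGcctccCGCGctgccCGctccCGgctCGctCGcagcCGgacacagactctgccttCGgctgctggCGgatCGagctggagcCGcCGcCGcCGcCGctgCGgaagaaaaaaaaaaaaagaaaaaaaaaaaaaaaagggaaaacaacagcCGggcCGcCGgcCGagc
Gabrg1: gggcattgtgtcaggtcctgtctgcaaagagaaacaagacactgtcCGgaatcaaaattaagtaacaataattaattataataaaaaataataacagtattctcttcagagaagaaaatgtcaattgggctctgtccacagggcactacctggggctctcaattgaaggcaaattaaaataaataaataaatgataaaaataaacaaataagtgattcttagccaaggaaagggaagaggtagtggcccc
Gabra3: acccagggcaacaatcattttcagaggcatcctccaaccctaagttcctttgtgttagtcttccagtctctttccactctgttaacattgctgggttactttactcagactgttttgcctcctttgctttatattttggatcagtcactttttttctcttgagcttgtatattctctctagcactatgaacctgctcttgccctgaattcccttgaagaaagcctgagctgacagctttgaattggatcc
Gabbr2 (chr4:46991715-46991964) held 37 CpG and Grik4 (chr9:42944372-42944621) held 36. Gabrg1 (chr5:70842618-70842867) held 1 and Gabra3 (chrX:72656920-72657169) held 0. Grik3, with 42 CpG, had the most of any member window and was not called, and Gabra3 rose without a CpG in its window.

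Genes that work with these receptors gave a mixed picture in EED-cKO forebrain. Of 17 auxiliary subunits of AMPA and kainate receptors, 7 rose and 5 fell. Gsg1l (log2 1.17) and Cacng2 (0.92), which encodes stargazin, rose, while Cnih3 (−1.34), a cornichon that slows AMPA receptor gating, and Neto1 (−0.83), a kainate receptor partner, fell. Of 20 excitatory scaffold genes, 5 rose and 2 fell, with Shank1 (log2 0.65) and Shank3 (0.60) higher and Homer1 (−0.73) and Homer3 (−0.54) lower. Of 15 inhibitory postsynaptic genes, 6 rose and 2 fell, with Iqsec3 at 1.12 and Kctd16, an auxiliary GABA-B subunit, at 0.61. Of 17 transmitter synthesis and transport genes, 12 rose and 2 fell. The share of all tested genes called higher was 30.2%, above that of the scaffold list, and differences between lists were not tested. The vesicular glutamate transporter of subcortical neurons, Slc17a6, rose by 1.33 on the log2 scale and that of cortical neurons, Slc17a7, fell by 2.02. Slc6a5 rose by 1.81 and the glial glutamate transporter Slc1a2 by 1.72. The neuronal chloride exporter Slc12a5, which makes GABA and glycine inhibitory, rose by 1.46 ± 0.16. The Neto1, Kctd16 and Slc values of E15.5 rest on the restored row order, which is inferred. Without the reassigned rows, 3 of 6 tested transmitter genes rose and 1 fell, 3 of 9 inhibitory postsynaptic genes rose and 2 fell, 7 of 15 auxiliary subunits rose and 3 fell, and 0 of the chloride transporters were left.

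Cell type markers moved as well, and their part in the receptor changes was not tested. Of 16 pan-neuronal genes, 6 rose and 2 fell (median log2 0.23, above 0 for 12), and their summed level was 5050 and 4899 RPKM in EED-cKO forebrain against 5636 and 5586 RPKM in wt. This sum rests largely on the 2 genes that fell, so it does not describe the list as a whole. Tubb3 was at 1509.2 and 1427.6 RPKM in EED-cKO forebrain, against 2198 and 2436.5 RPKM in wt. Stmn2 was at 1097.3 and 1046.8 RPKM in EED-cKO forebrain, against 1278.8 and 1381.1 RPKM in wt. All 10 cortical glutamatergic neuron markers fell, with a sum of 172 and 159 RPKM in EED-cKO forebrain and 1121 and 1152 RPKM in wt. Of 14 spinal cord and hindbrain neuron markers 12 rose, with a sum of 259 and 235 RPKM in EED-cKO forebrain against 59.7 and 45.3 RPKM in wt, where 4 of them were at 0. In wt embryos at E13.5, 11 of the 14 were higher in spinal cord than in forebrain, and Gata2, Gata3 and Tal1 were not called. Of these, Tal1 was at 55.7 and 49.8 RPKM and Gata3 at 30.4 and 33.5 RPKM in EED-cKO forebrain. Forebrain GABAergic markers fell for 7 of 11 and rose for 2. All 9 mesenchyme markers rose (744 and 910 RPKM in EED-cKO forebrain, 250 and 190 RPKM in wt), as did all 6 endothelial markers and 4 of 5 microglial markers. The skeletal muscle list summed to 5.9 RPKM in EED-cKO replicate 1 and 61.6 RPKM in replicate 2, and to 4.3 and 5.5 RPKM in wt. Of 12 progenitor and radial glia markers 6 rose and 3 fell, and of 6 oligodendrocyte lineage markers 2 rose and 2 fell. Of 5 erythroid genes 0 rose and 1 fell: the adult beta globin gene Hbb-bt was at 5.9 and 8.1 RPKM in EED-cKO forebrain, against 395.4 and 547.4 RPKM in wt. Its near-identical copy Hbb-bs was at 5109.1 and 5902.3 RPKM in EED-cKO forebrain and 3159.1 and 4340.1 RPKM in wt, without a call, and how reads were split between these copies is uncertain. Several of these lists hold genes on reassigned rows. Without them, all 6 cortical and all 6 mesenchyme markers left kept these directions, and 5 of 12 pan-neuronal genes rose and 2 fell.

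Spinal cord was set against forebrain of wt embryos at E13.5 to give the regional difference. Receptor genes were higher in spinal cord for 28 of the 43 tested members and lower for 3, where 21.8% of all tested genes were higher and 23.9% lower, 45.7% in all. The median log2 change was 0.65 over the tested members and 0.00 over all tested genes. Glutamate receptors were higher for 18 of 24 and lower for 2, GABA-A receptors were higher for 6 of 14 and lower for 1, and both GABA-B genes were higher. Of the 28 higher calls, 21 held with each of the 8 libraries left out. The median log2 change of the members was 0.56 to 0.71 in those fits, and that of all tested genes was 0.00. The lower calls numbered 1 without spinal cord replicate 2 or E13.5 forebrain replicate 1, 5 without either E15.5 wt library, and 6 after quantile normalization.

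The glycine receptor subunit Glra1 had the largest difference. It was at 4.2 and 5.4 RPKM in spinal cord and at 0.1 and 0 RPKM in E13.5 forebrain (log2 2.46 ± 0.12, limma adjusted p = 1.3e-05). Since Glra1 reached 1 RPKM in spinal cord libraries alone, it could be tested only because it was high there. Glra2 was at 16.1 RPKM in both spinal cord libraries, against 7 and 5 RPKM in forebrain (log2 1.30 ± 0.13, adjusted p = 2.3e-04). Glra1 made up 20.6% and 25% of the summed glycine alpha subunits in spinal cord and 1.39% and 0% in forebrain. Glrb was at 5.4 and 6.2 RPKM in spinal cord and 5.1 and 5.4 RPKM in forebrain, and was not called.

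NMDA receptor genes were higher in spinal cord for 5 of 6 tested. Grin1 was at 13.3 and 11.9 RPKM in spinal cord, against 3.4 and 3 RPKM in forebrain (log2 1.69 ± 0.11, adjusted p = 3.8e-05). Grin2d was at 9.6 and 10.4 RPKM in spinal cord and 2.8 and 2.1 RPKM in forebrain (log2 1.68 ± 0.18, adjusted p = 3.6e-04). Grin3a was at 8.4 and 7.5 RPKM in spinal cord and 2.1 and 1.7 RPKM in forebrain (log2 1.63 ± 0.20, adjusted p = 6.6e-04). Grin2c was at 1.4 RPKM in both spinal cord libraries and 0.1 RPKM in both forebrain libraries (log2 1.13 ± 0.071, an SE again set by other genes). Grin3b, a GluN3 subunit known from motor neurons, was at 2 and 1.9 RPKM in spinal cord and 1.2 RPKM in both forebrain libraries (log2 0.42 ± 0.085, adjusted p = 0.00594). Grin2b was at 1.9 and 1.8 RPKM in spinal cord and 1 and 0.9 RPKM in forebrain and was not called (adjusted p = 0.142). It was called in the fit of the 4 libraries alone (adjusted p = 0.00739) and without either E15.5 wt library (log2 0.55 each, adjusted p = 0.0226 and 0.0228).

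All 4 AMPA receptor genes were higher in spinal cord. Gria4 was at 19.5 and 21.4 RPKM in spinal cord, against 8.7 and 7.6 RPKM in forebrain (log2 1.23 ± 0.089, adjusted p = 5.8e-05), and took 28.5% and 30% of the AMPA sum in spinal cord and 19.5% and 19.4% in forebrain. Gria3 was higher by 0.80 ± 0.16. Gria2 (29.6 and 30.3 RPKM in spinal cord, 21.7 and 20.2 RPKM in forebrain) lost its call without any of the E13.5 libraries (log2 0.45 to 0.55, adjusted p = 0.0505 to 0.0963). Gria1 (13.3 and 12.3 RPKM in spinal cord, 10.4 and 8.3 RPKM in forebrain) lost its call without forebrain replicate 2, either spinal cord library or either EED-cKO library (log2 0.27 to 0.47, adjusted p = 0.0559 to 0.131).

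Of 5 kainate receptor genes, 3 were higher. Grik4 was at 7.2 RPKM in both spinal cord libraries and 2.3 and 2.5 RPKM in forebrain (log2 1.27 ± 0.090, adjusted p = 5.2e-05). Grik1 was at 4.1 and 3.6 RPKM in spinal cord and 1.7 and 1.6 RPKM in forebrain (log2 0.87 ± 0.12). Grik5 differed by 0.23 ± 0.074, and lost its call without any of the E13.5 libraries or either EED-cKO library (log2 0.18 to 0.28, adjusted p = 0.0579 to 0.202). Grid1 was at 6.2 and 5.9 RPKM in spinal cord and 3.1 and 3.3 RPKM in forebrain (log2 0.75 ± 0.093).

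The metabotropic glutamate receptors divided between the tissues. Grm5 was at 5.4 and 4.3 RPKM in spinal cord, against 1.1 and 0.8 RPKM in forebrain (log2 1.58 ± 0.18, adjusted p = 5.0e-04). Grm3 was at 3.9 and 4 RPKM in spinal cord and 1 RPKM in both forebrain libraries (log2 1.31 ± 0.17), and Grm7 was at 3.8 and 3.2 RPKM in spinal cord and 1.2 and 0.9 RPKM in forebrain (log2 1.13 ± 0.15). Grm8 was higher by 0.68 ± 0.15, a call lost without forebrain replicate 2 or spinal cord replicate 1 (log2 0.56 and 0.58, adjusted p = 0.0676 and 0.0672). Grm2 was at 2.2 and 1.8 RPKM in spinal cord and 3.6 and 2.7 RPKM in forebrain (log2 −0.46 ± 0.14, adjusted p = 0.0345), a call lost without forebrain replicate 1, either spinal cord library or either EED-cKO library (log2 −0.56 to −0.31, adjusted p = 0.0674 to 0.186).

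Gabbr2 was at 9 and 8.4 RPKM in spinal cord, against 2.4 and 1.5 RPKM in forebrain (log2 1.73 ± 0.24, adjusted p = 0.00101), and Gabbr1 was higher by 0.83 ± 0.11. Among GABA-A genes, Gabra5 was at 5.1 and 5.4 RPKM in spinal cord and 3.2 and 2.3 RPKM in forebrain (log2 0.75 ± 0.13). Gabra3 was at 10.6 and 9.1 RPKM in spinal cord and 7.8 and 5 RPKM in forebrain, and kept its call only without E13.5 forebrain replicate 1 (log2 0.30 to 0.67, adjusted p = 0.0558 to 0.192 in the other 7 fits). Gabrb1 (log2 0.46 ± 0.13) lost its call without any of the E13.5 libraries (log2 0.40 to 0.51, adjusted p = 0.0633 to 0.127), and Gabrg1 (0.65 ± 0.14) without forebrain replicate 2 or spinal cord replicate 2 (log2 0.65 and 0.62, adjusted p = 0.0551 and 0.0602). Gabre was lower, at 0.4 and 0.3 RPKM in spinal cord and 0.8 and 0.7 RPKM in forebrain (log2 −0.37 ± 0.10), a call lost without either forebrain library or spinal cord replicate 2 (log2 −0.42 to −0.32, adjusted p = 0.0587 to 0.102). Gabra2, Gabra4 and Gabrb2 had changes of −0.38 to −0.03 and were not called.

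Neuronal genes as a whole were also higher in spinal cord, and their part in the receptor differences was not tested. All 16 pan-neuronal genes were higher (median log2 1.06), with a sum of 4276 and 4002 RPKM in spinal cord and 2026 and 1810 RPKM in forebrain. Progenitor and radial glia markers were lower for 8 of 12 and higher for 3. Of 17 auxiliary AMPA and kainate receptor subunits 11 were higher (Olfm3 at 1.62, Gsg1l at 1.47), of 15 inhibitory postsynaptic genes 12 were higher (Iqsec3 at 2.24, Kctd8 at 1.53), and of 20 excitatory scaffold genes 8 were higher and 4 lower (Shank1 at 1.25, Camk2a at −1.23). Transmitter genes were higher for 10 of 17 and lower for 3, led by Slc6a5 (4.11) and the GABA transporter Slc6a11 (2.75). Slc12a5 was higher by 1.21.

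The comparisons share no library, although they share 1 estimate of the spread. Of the 20 members higher in EED-cKO forebrain, 15 (75%) were also higher in spinal cord, and these made up 53.6% of the 28 members higher in spinal cord. Over all 43 tested members 65.1% were higher in spinal cord, so the share is near that of the members as a whole. Over all genes, 36.9% of those higher in EED-cKO forebrain were higher in spinal cord. Without Glra1, which could be tested only because it was high in spinal cord, 14 of 19 were higher in both. These include Grin1, Grin2c, Grin2d, Grik4, Grid1, Gria3, Gria4 and Gabbr2. Values of some members diverged. Grm4 rose by 1.43 in EED-cKO forebrain and had an uncalled change of 0.38 in spinal cord (5.2 and 4.9 RPKM, against 4 and 3.3 RPKM in forebrain), which was called without either E15.5 wt library (adjusted p = 0.018 and 0.0177). Gabrq and Gabrg3 also rose in EED-cKO forebrain without a call in spinal cord. Gabre was higher in EED-cKO forebrain and lower in spinal cord. Conversely, 13 members were higher in spinal cord and not called higher in EED-cKO forebrain, among them Grin3a, Grm5, Grm3 and Glra2. Whether any of these members differed between the comparisons was not tested.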

How the data were processed

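The authors deposited 1 table of RPKM values rounded to 0.1 for 8 libraries. The submitters' processing notes name the builds mm9 and GRCm38; the aligner and counter are not given in the sources used here. Depth per library cannot be read from the values, and no count test was possible. The E15.5 columns were matched to the gene names sorted alphabetically, ignoring case and hyphens. Over all rows this changed the correlation of wt forebrain at E13.5 with E15.5 to 0.948, against 0.76 as deposited. The 52 members keep their rows either way. Genes at 1 RPKM or more in at least 2 libraries (17022) were tested on log2(RPKM + 1) with limma 3.58.1 (R 4.3.3), 1 coefficient per group over all 8 libraries, a trended prior and Benjamini-Hochberg adjustment over all tested genes. On this log2 scale the median SD between replicates was 0.117 in E15.5 wt forebrain and 0.049 to 0.058 in the other groups. The shared spread can therefore understate the SE of EED-cKO changes. Fold changes on this scale understate changes of low genes. The procedure was tested on simulated data. Any member could be named, and of each other list up to 4 called genes with the largest log2 change. Promoter windows were counted in Python 3.11.15. Alternatives were other pseudocounts, filters, scalings, row orders, sample sets, a replicate block and leaving out each library. The members and lists were chosen with earlier results of these data known. A few members entered every fit and count but are not reported here by name.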

Additional observations from a re-analysis of the deposited data

How the results depend on the processing

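With 2 libraries a group, single libraries decide many calls. In EED-cKO forebrain, leaving out 1 library gave 11 to 27 higher and 1 to 4 lower members, and 4922 to 9606 called genes. Quantile normalization gave 12 higher and 3 lower members, median ratio scaling 2 lower, the fit of 4 libraries 11 higher, 0 lower and 4777 called genes, and the genes whose row does not depend on the order 4929 called genes, since fewer genes were tested. In spinal cord, leaving out 1 library gave 21 to 30 higher and 1 to 5 lower members and 5205 to 9320 called genes. A pseudocount of 0.1 gave 5 lower members, quantile normalization 6, and the genes whose row does not depend on the order 4792 called genes. The replicate numbers are no stated pairing. Deviations of same-numbered libraries correlated at −0.124 in the EED-cKO comparison and 0.211 in the spinal cord comparison. The replicate block gave 22 higher and 1 lower members in EED-cKO forebrain and 29 and 3 in spinal cord. The crossed pairing, chosen after seeing the data, gave 22 and 2 in EED-cKO forebrain.

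Signs turned for uncalled members and for Gabre in EED-cKO forebrain. Median ratio scaling gave log2 changes of −0.04 for Gabra4, −0.03 for Gabra5 and Gabrb2, −0.08 for Glrb, −0.10 for Grik2 and −0.07 for Grik5. Quantile normalization gave −0.17 for Gabra4, −0.10 for Gabrb2 and Grin2b, −0.06 for Gabre and Glrb, and −0.12 for Grik2. Without wt replicate 2 the changes were −0.08 for Gabra4, −0.00021 for Gabra5, −0.25 for Gabrb2, −0.11 for Grik2, −0.02 for Grik5 and Grm5, −0.19 for Grin2b, −0.03 for Grin3a, −0.28 for Gria2 and −0.46 for Grik3. Without wt replicate 1 they were 0.13 for Gria2, 0.15 for Grik3, 0.42 for Gabrb2, 0.24 for Gabra4, 0.19 for Gabra5, 0.14 for Grik5, 0.70 for Grin2b, 0.57 for Grin3a and 0.51 for Grm5, and without EED-cKO replicate 1 Grik2 was at −0.03. In spinal cord, Gabra2 was at 0.03 and Gabra4 at 0.07 without E13.5 forebrain replicate 1. Gabra4 was at 0.04 without spinal cord replicate 2, and without E13.5 forebrain replicate 2 Gabra2 was at −0.79 and Gabra4 at −0.13. The cause was not tested.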
